A study of Mus musculus with 4 samples.

Results

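The genes described here are the constant regions of the mouse antibody chains and the joining chain: the heavy chain constant genes Ighm, Ighd, Ighg1, Ighg2b, Ighg2c, Ighg3, Igha and Ighe, the kappa light chain constant gene Igkc, and Jchain. They were taken by symbol, with earlier results of these data known, and all 10 were found among the 52535 gene models of the count files. RNA was sequenced from the pancreas of C57BL/6 mice, in samples labelled as ductal cells. The 2 control libraries (WT 1 and WT 2) come from wild-type mice. The 2 libraries labelled Lats1/2 KO (KO 1 and KO 2) come from mice with floxed Lats1 and Lats2 alleles and Sox9-CreER, a tamoxifen-dependent Cre recombinase that acts in cells expressing the duct gene Sox9. The wild-type label names neither floxed alleles nor a Cre. Mouse age, tamoxifen treatment and the isolation of the cells are details not given in the labels. Whether the replicates are separate mice is not stated either, and the p-values therefore describe only the variation among these 4 libraries, some of which may be technical.

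Antibodies are made by B cells and, in far larger amounts, by the plasma cells that B cells become. A naive B cell carries IgM and IgD, whose constant regions are spliced from one long transcript. After activation, class switch recombination replaces this constant region with that of an IgG subclass, IgA or IgE, and the variable part stays the same. The J chain links IgA into dimers and IgM into pentamers, and the epithelial receptor encoded by Pigr carries these polymers across ducts and mucosa into secretions. IgM is also secreted by plasma cells, so Ighm counts are not restricted to naive cells, and gene-level counts do not separate membrane from secreted forms.

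The sequence features that set the isotypes apart are short. The last 57 coding bases of secreted Ighm and Igha encode the tailpiece through which IgM and IgA bind the J chain, and its last cysteine is the next to last residue. These bases are shown with the same stretch of Ighg1 for comparison, as read from the GENCODE M21 transcripts (mm10, minus strand). Capitals mark in-frame cysteine codons, and each line ends with the stop codon.
Ighm, chr12:113420867-113420923: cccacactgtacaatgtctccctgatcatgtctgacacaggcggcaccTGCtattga
Igha, chr12:113258768-113258824: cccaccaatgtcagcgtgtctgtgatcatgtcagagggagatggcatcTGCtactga
Ighg1, chr12:113328976-113329032: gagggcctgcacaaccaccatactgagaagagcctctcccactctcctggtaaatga
Ighm and Igha each hold 1 cysteine codon in this stretch, next to the stop-proximal tyrosine codon, and Ighg1 holds 0, as do Ighg2b, Ighg2c and Ighg3.

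The 4 IgG subclasses differ most visibly in the hinge, the flexible segment with a small exon of its own between the arms and the stem of the antibody. The hinge exons are shown because they are a part of these transcripts where the subclasses can be told apart. Capitals again mark in-frame cysteine codons.
Ighg1, chr12:113329844-113329882: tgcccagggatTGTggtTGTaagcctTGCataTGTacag
Ighg2b, chr12:113307261-113307326: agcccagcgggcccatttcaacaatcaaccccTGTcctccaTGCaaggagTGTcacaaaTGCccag
Ighg2c, chr12:113288263-113288325: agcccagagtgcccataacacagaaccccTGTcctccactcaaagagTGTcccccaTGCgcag
Ighg3, chr12:113360529-113360576: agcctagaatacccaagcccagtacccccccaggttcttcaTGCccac
They hold 4, 4, 3 and 1 cysteine codons. Elsewhere the IgG genes resemble each other: Ighg2b shares a run of 88 identical bases with Ighg3, one of 78 with Ighg2c and one of 59 with Ighg1. Of all 50-base windows of the transcripts, 5.49% of those of Ighg2c, 4.15% of Ighg2b, 1.58% of Ighg3 and 0.39% of Ighg1 also occur in another heavy chain gene. For Ighm, Ighd, Igha and Ighe this share was 0.0%. Reads from such windows may have been split or dropped, so the division between IgG subclasses is less certain than that between IgM, IgD, IgG as a whole, IgA and IgE.

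The libraries held 3566387 and 4735183 counts (WT) and 5082636 and 5925601 counts (KO). Levels are given as CPM, counts scaled to a common library size with the TMM correction for library composition. The labelled deletion did not show as a lower level of either target. Lats1 stood at 50.8 and 65.6 CPM in WT and 70.0 and 79.2 CPM in KO, and Lats2 at 114, 102, 163 and 121 CPM. Counts over whole gene models do not test the deletion. Xist, the transcript of the inactive X chromosome, had 362 counts in WT 1 and 0 in WT 2, against 852 and 838 in KO 1 and KO 2. WT 1 and WT 2 therefore do not come from the same mouse or pool. Only WT 2 lacked Xist, so sex is not balanced between the groups and its part in the differences cannot be told apart. Duct genes were present in every library, with a summed level of 2121 to 2613 CPM over 12 markers in WT and 15262 to 15431 CPM in KO. Other tissue was present too: 14 acinar genes summed to 57412 and 104097 CPM in the WT pair, and to 171 and 3989 CPM in the KO pair.

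All 10 genes were lower in both KO libraries than in both WT libraries, as were 36.8% of all genes tested. The fall passed the test for 9 of the 10 (edgeR's quasi-likelihood test, Benjamini-Hochberg adjusted p under 0.05 over 13990 genes), against 20.2% of all genes called lower. All 9 were also more than 4-fold lower, as were 8.48% of all genes. The 10 genes are expressed by the same B cells and plasma cells, so their calls are not independent results. In either direction 42.2% of genes were called, and 52.1% of those were higher in KO (39.4% with upper quartile scaling). The median log2 change of the 10 genes was -3.84, against -0.01 for all genes tested. The differences ranged from 7.68-fold for Jchain to 40.4-fold for Ighd, and leaving out 1 library moved the fold of every gene but Ighg3 by over 1.5 times, as given with each gene. Together the 10 genes made up 0.645% (WT 1) and 1.12% (WT 2) of a library, against 0.108% (KO 1) and 0.045% (KO 2). In such bulk samples, fewer antibody-producing cells and less immunoglobulin RNA per cell cannot be told apart. Every one of the 10 falls was larger without KO 1 and smaller without KO 2. With a lone KO library, whether a gene passes depends on the spread within the WT pair.

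**Figure D1:**
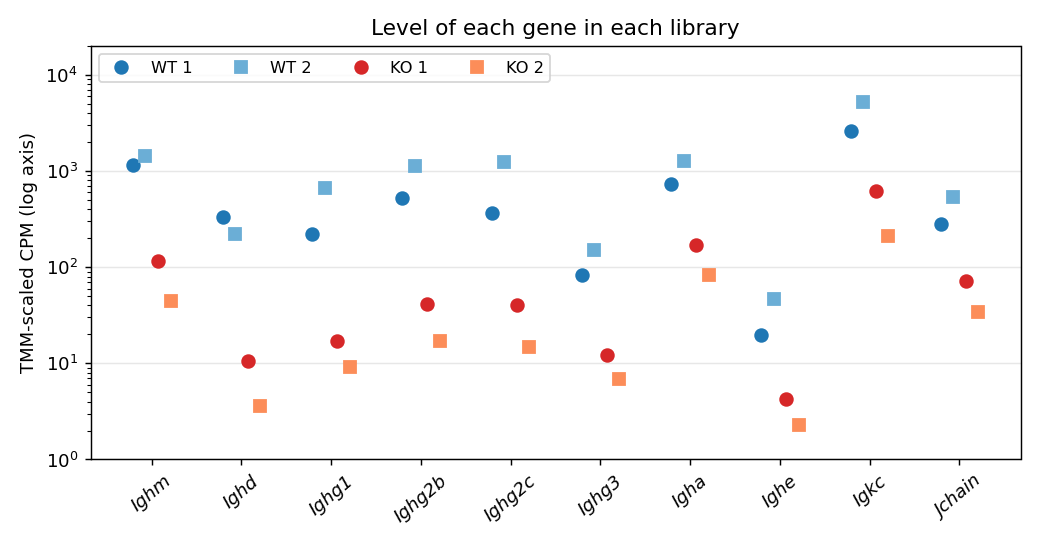
Level of each of the 10 genes in each library, as TMM-scaled CPM on a log axis, with circles for replicate 1, squares for replicate 2, blue for WT and red or orange for KO. The groups did not overlap for any of the 10 genes, WT 2 was above WT 1 for all but Ighd, and KO 1 was above KO 2 for all 10.

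Ighm, the first isotype made by every B cell (chromosome 12, 113418558 to 113422730), stood at 1151 and 1444 CPM in the WT pair and at 115 and 44.0 CPM in the KO pair. Both WT libraries were about equally high, and the KO libraries lay well below them and apart from each other. Ighm fell by 4.03 ± 0.56 (SE) on the log2 scale, or 16.4-fold (edgeR adjusted p = 0.00709). Ighd, the companion isotype of the naive B cell (chromosome 12, 113406604 to 113416324), stood at 334 and 223 CPM in WT and at 10.5 and 3.56 CPM in KO. It was the one gene of the 10 that was higher in WT 1 than in WT 2. Ighd fell by 5.34 ± 0.59 (SE) in log2 units (edgeR adjusted p = 0.00426), within the SE of the change of Ighg1. Without WT 1 its log2 change was -5.01, behind those of Ighg1 (-5.66), Ighg2c (-5.47) and Ighg2b (-5.28). Without KO 1 the log2 changes of Ighm and Ighd were -4.88 and -6.27, and without KO 2 that of Ighd was -4.70. Ighd made up 22.5% and 13.4% of the Ighm and Ighd counts in WT 1 and WT 2 (95% Wilson intervals 21.38 to 23.61% and 12.62 to 14.17%). In KO 1 and KO 2 this share was 8.36% and 7.48% (6.43 to 10.8% and 4.99 to 11.07%), below both WT libraries. Such intervals cover counting error only.

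The IgG genes were 12.5-fold to 34.1-fold lower in KO, and 3 of the 4 passed the test. Ighg1, the subclass typical of responses to protein antigens (113325240 to 113330523), stood at 222 and 662 CPM in WT and 16.9 and 9.23 CPM in KO. Ighg2b (113302965 to 113307933) stood at 521 and 1138 CPM in WT and 41.3 and 17.2 CPM in KO. The WT libraries differed more for these subclasses than for Ighm: WT 2 was 2.98 times WT 1 for Ighg1 and 2.18 times for Ighg2b, against 1.25 times for Ighm. Ighg1 fell by 5.09 ± 0.89 (SE) in log2 units (edgeR adjusted p = 0.0329) and Ighg2b fell by 4.83 ± 0.78 (edgeR adjusted p = 0.0231). Neither passed without KO 1 (edgeR adjusted p = 0.245 and 0.122), nor when KO 2 was left out (0.276 and 0.157). Without WT 2 the log2 changes of Ighg1 and Ighg2b were -4.10 and -4.16, and without KO 1 that of Ighg2b was -5.59.

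Ighg2c, the C57BL/6 counterpart of the IgG2a gene of other strains (113285325 to 113288932), stood at 364 and 1238 CPM in WT and 40.7 and 14.9 CPM in KO. It had the widest gap between the WT libraries, with WT 2 at 3.40 times WT 1. Its log2 difference was -4.86 ± 1.17 (SE), as large as that of Ighg2b, but it did not pass (edgeR adjusted p = 0.0791). With WT 1 left out Ighg2c passed (-5.47, edgeR adjusted p = 0.00921). It did not pass with WT 2 left out (-3.72, edgeR adjusted p = 0.0525), KO 1 left out (-5.74, 0.278) or KO 2 left out (-4.26, 0.334). Ighg3, a subclass linked to responses to carbohydrate antigens (113356224 to 113361232), was the least abundant IgG gene in WT, at 83.8 and 152 CPM, and stood at 12.3 and 6.80 CPM in KO. Its fall was the smallest of the 4, by 3.64 ± 0.42 (SE) in log2 units (edgeR adjusted p = 0.00128). Within the IgG counts, Ighg3 took 7.03% and 4.78% in WT and 11.1% and 14.1% in KO. The shares of Ighg1, Ighg2b and Ighg2c overlapped between the groups.

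Igha, the isotype of mucosal secretions (113254830 to 113260236), stood at 728 and 1257 CPM in WT and at 171 and 82.7 CPM in KO. The groups did not overlap, and the fall was the smallest among the heavy chain genes, by 2.97 ± 0.49 (SE) on the log2 scale, or 7.83-fold (edgeR adjusted p = 0.011). It did not pass without KO 2 (-2.50, edgeR adjusted p = 0.0613). Without KO 1 the log2 change of Igha was -3.58. Ighe, the isotype of allergic responses and the rarest of the 10 (113269260 to 113273248), stood at 19.5 and 47.2 CPM in WT and 4.23 and 2.27 CPM in KO, from 71, 210, 21 and 14 counts. All 4 values lay above the level of 3 counts, which was 0.486 to 0.824 CPM. Ighe fell by 3.38 ± 0.53 (SE) in log2 units (edgeR adjusted p = 0.00292) and did not pass without KO 2 (-2.94, edgeR adjusted p = 0.0732). Without WT 2 the log2 change of Ighe was -2.60.

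Igkc, the constant part of the kappa light chain (chromosome 6, 70726435 to 70726966), stood at 2616 and 5190 CPM in WT and at 627 and 213 CPM in KO. Kappa pairs with every heavy chain isotype, and its level per kilobase of exon was above that of each heavy chain gene in both groups. Igkc fell by 3.22 ± 0.76 (SE) in log2 units (edgeR adjusted p = 0.0439). It did not pass without KO 1 (-4.19, edgeR adjusted p = 0.0625), nor when KO 2 was left out (-2.60, edgeR adjusted p = 0.124). A further model on the same strand, Gm30211, spans Igkc and held 11, 14, 3 and 1 counts, far fewer than Igkc. The lambda constant genes Iglc1, Iglc2 and Iglc3, whose copies resemble each other and may share reads, fell as well, by 3.96, 4.71 and 4.77 in log2 units (edgeR adjusted p = 0.000109, 0.000922 and 6.57e-05). Of all Igkc and Iglc1, Iglc2 and Iglc3 counts, Igkc took 95.1% and 96.4% in WT and 98.2% and 97.7% in KO. Igkc counts per heavy chain count were 0.764 and 0.842 in WT and 1.52 and 1.18 in KO, again without overlap. In the list of lambda and surrogate light chain genes, 4 of 8 were tested and all 4 of these fell, against 20.2% of all genes called lower. Iglc3 (71 and 94 counts in WT, 4 in each KO library) and the surrogate chain gene Vpreb3 (25 and 28, 2 and 0) passed the filter on low counts only through WT. The direction of their change therefore follows from that filter. The pooled WT to KO ratio was 28.4 for Iglc3 (95% exact interval 14.1 to 66.9) and 36.5 for Vpreb3 (9.62 to 309). These intervals cover counting error only. The fitted log2 change of Vpreb3 was -4.99 ± 0.82 (SE, edgeR adjusted p = 0.00171).

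Jchain, which joins polymeric IgA and IgM (chromosome 5, 88519809 to 88527891), stood at 278 and 531 CPM in WT and at 71.4 and 34.3 CPM in KO. Jchain fell by 2.94 ± 0.56 (SE) in log2 units (edgeR adjusted p = 0.0231), close to the fall of Igha. It did not pass without KO 1 (-3.55, edgeR adjusted p = 0.0833), nor when KO 2 was left out (-2.47, edgeR adjusted p = 0.134). Per 100 counts of its partners Igha and Ighm, there were 14.8 and 19.7 Jchain counts in WT 1 and WT 2 and 25.0 and 27.1 in KO 1 and KO 2. This ratio was higher in both KO libraries than in both WT libraries.

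**Figure D2:**
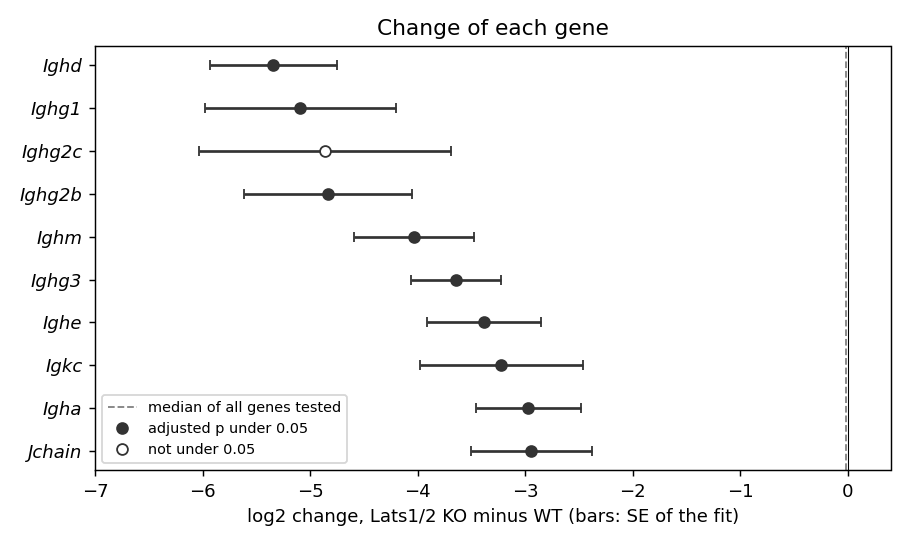
The log2 change of each gene, Lats1/2 KO minus WT, with bars for the SE of the fit, filled points for an adjusted p under 0.05 and a dashed line at the median of all genes tested. Ighd and the Ighg1, Ighg2b and Ighg2c genes lay between -5.34 and -4.83, and Igha and Jchain at -2.97 and -2.94.

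Per kilobase of annotated exon, Igkc was the highest in both groups, at 7336 ± 3420 CPM per kb in WT and 789 ± 550 in KO (SD, n = 2). In WT the order of mean levels was then Ighm (688 ± 110), Ighg2c (604 ± 466), Igha (372 ± 140), Ighg2b (310 ± 163), Ighg1 (171 ± 120), Jchain (161 ± 71.0) and Ighd (146 ± 41.2 CPM per kb). Each neighbour in this run overlapped the next in its range over libraries. Ighg3 (47.0 ± 19.3) and Ighe (21 ± 12.4 CPM per kb) lay below, without overlap. In KO the mean of Igha (47.6 ± 23.4) came before that of Ighm (42.1 ± 26.5 CPM per kb), with overlapping ranges. Ighd came next to last in KO, at 3.69 ± 2.57 CPM per kb, after Ighg3 at 3.80 ± 1.54. From Igha downwards, every neighbour in the KO order overlapped the next. These orders depend in part on annotated length, which merges the exons of all transcripts of a gene. Ighg2c has 1326 annotated bases and Ighg2b 2678, whereas their mean levels in WT were 801 and 830 CPM.

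The comparison of naive with switched isotypes asks whether the IgM and IgD genes moved differently from the IgG, IgA and IgE genes. They did not separate the groups. The switched genes took 56.6% of the heavy chain counts in WT 1 (95% Wilson interval 55.77 to 57.51%), 72.9% in WT 2 (72.42 to 73.47%), 69.6% in KO 1 (67.56 to 71.54%) and 73.7% in KO 2 (70.99 to 76.16%). WT 2 lay between the KO libraries and only WT 1 stood below. The group means were 64.8 ± 11.5% and 71.6 ± 2.88% (SD, n = 2), with an exact two-sided permutation p of 0.667. With Igha left out the order of the means turned, to 55.5 ± 14.9% in WT and 49.7 ± 2.44% in KO (exact permutation p = 1.0), and without WT 1 the difference was -1.33 percentage points. With 2 libraries against 2, this test cannot go below 0.3333. Over the 24 within-library ratios computed here, most of them chosen after the levels were seen, the lowest Benjamini-Hochberg value was 0.571. The ratios that follow are therefore given as values.

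Within the heavy chain counts, the Igha share was higher and the IgG and Ighd shares lower in both KO libraries than in both WT libraries. Igha took 21.3% and 20.4% of them in WT 1 and WT 2 (95% Wilson intervals 20.56 to 22.0% and 19.93 to 20.88%), which lay close together. In KO 1 and KO 2 it took 41.6% and 45.8% (39.45 to 43.71% and 42.88 to 48.72%). The 4 IgG genes took 34.8% and 51.8% in WT and 27.0% and 26.6% in KO, and Ighd took 9.74% and 3.62% in WT and 2.54% and 1.97% in KO. The small Ighe share was 0.570% and 0.766% in WT and 1.03% and 1.25% in KO. For each of these 4 shares the groups did not overlap (exact permutation p = 0.3333, the smallest possible). The Ighm share did overlap, at 33.6% and 23.4% in WT and 27.9% and 24.4% in KO. Among switched counts alone, Igha averaged 32.8 ± 6.77% in WT and 60.9 ± 1.72% in KO (SD, n = 2), with 37.5% and 28.0% in WT 1 and WT 2 and 59.7% and 62.2% in KO 1 and KO 2. This difference of 28.2 percentage points ranged from 23.4 to 33.0 when each library was left out in turn, and was 26.9 with counts divided by exonic length.

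**Figure D3:**
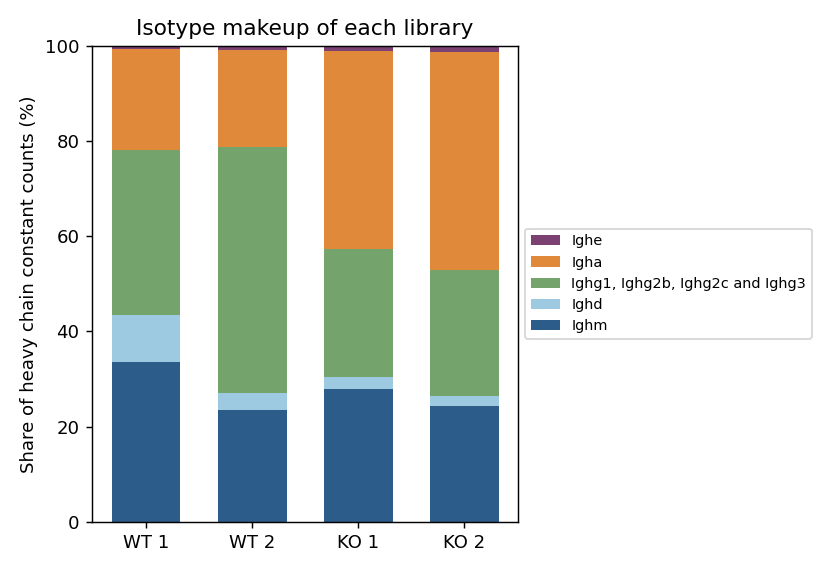
Share of the heavy chain constant counts taken by each isotype in each library, in percent, with the 4 IgG genes summed. The Igha band covers 21.3% and 20.4% in WT 1 and WT 2 and 41.6% and 45.8% in KO 1 and KO 2.

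B cell genes were lower in the same libraries. Of 16 listed genes all 16 fell, with a median log2 change of -4.25. Beside this and the lists that follow, 20.2% of all genes tested were called lower and 42.2% in either direction. Their summed level was 1945 and 1727 CPM in the WT pair and 176 and 91.0 CPM in the KO pair. Ms4a1, a surface protein of B cells, fell by 4.97 in log2 units (edgeR adjusted p = 1.18e-05), and Cd79a, a signalling chain of the B cell receptor, by 4.29 (edgeR adjusted p = 0.0223). Cd79a lost its call when WT 1 (edgeR adjusted p = 0.125) or WT 2 (0.108) was left out. The low-affinity IgE receptor Fcer2a and the transcription factor Spib fell by 5.35 and 5.16 on the log2 scale. Unlike the IgG genes, the B cell genes as a sum were not higher in WT 2 than in WT 1.

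Per count of these 16 B cell genes, there were 1.76 and 3.57 heavy chain counts in WT 1 and WT 2 and 2.33 and 1.99 in KO 1 and KO 2. These values overlap (exact permutation p = 1.0 on the log2 scale, difference -0.22), and the direction turned with other denominators: the difference was 0.53 against Cd79a and Cd79b alone, and 0.41 without Cd72 and Ebf1. Without WT 2 the difference was 0.29. By gene, these ratios divide the same counts by a common denominator in each library, so they restate the differences between isotypes given above. Igha gave 0.374 and 0.728 counts per B cell gene count in WT and 0.970 and 0.909 in KO, and Jchain 0.143 and 0.308 in WT and 0.405 and 0.377 in KO. Ighd went the other way, at 0.172 and 0.129 in WT and 0.059 and 0.039 in KO. The 4 IgG genes gave 0.613 and 1.85 in WT and 0.630 and 0.528 in KO, where WT 2 alone stood apart. With Cd72 and Ebf1 left out of the B cell list, as an alternative chosen after seeing that both fell less than the rest, the groups stayed apart in the same order for Igha (0.403 and 0.782 in WT, 1.47 and 1.65 in KO), Jchain (0.154 and 0.330, 0.615 and 0.686) and Ighd (0.185 and 0.139, 0.090 and 0.071). Ighm overlapped between the groups with both lists, at 0.592, 0.836, 0.651 and 0.484 counts per count of the full list in WT 1, WT 2, KO 1 and KO 2.

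**Figure D4:**
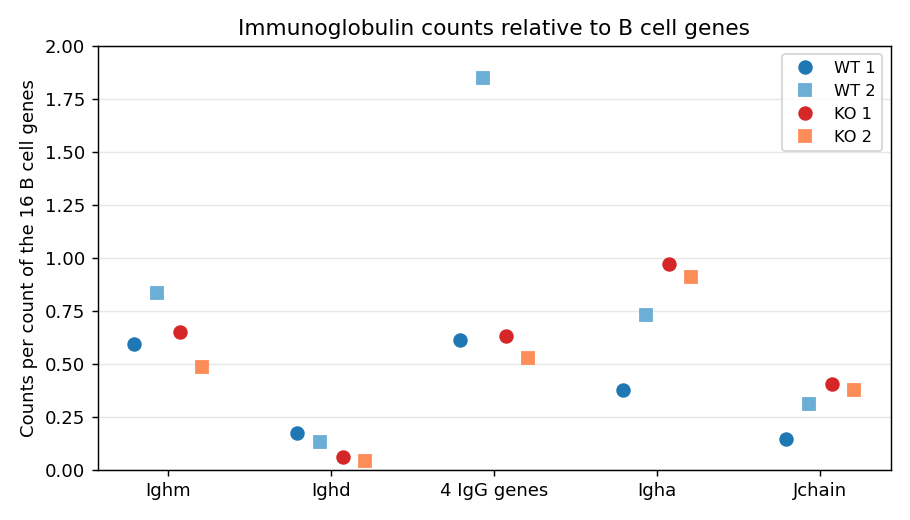
Counts of Ighm, Ighd, the 4 IgG genes, Igha and Jchain divided by the summed counts of 16 B cell genes in the same library. The KO values lie above both WT values for Igha (0.970 and 0.909 against 0.374 and 0.728) and Jchain and below them for Ighd, and the IgG value of WT 2, 1.85, stands above the other 3 libraries.

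Genes linked to plasma cells moved in both directions. Of 13 listed genes 12 were tested, 8 fell, 2 rose and 2 did not pass, with a median log2 change of -2.06. Mzb1, a chaperone of antibody assembly, stood at 31.9 and 47.4 CPM in WT and 3.22 and 2.27 CPM in KO and fell by 3.86 in log2 units (edgeR adjusted p = 7.36e-05). Pou2af1, a coactivator of immunoglobulin transcription, fell by 3.14 (edgeR adjusted p = 7.77e-05). Tnfrsf17, the plasma cell survival receptor BCMA, was too low to be tested, with 11, 8, 4 and 0 counts. Prdm1 and Sdc1, which mark plasma cells but are also expressed by epithelial cells, rose by 1.28 and 2.93 in log2 units (edgeR adjusted p = 0.00236 and 2.03e-05). In the same libraries the 12 duct genes changed by a median of 2.13 (log2), and the part of epithelial cells in these rises was not tested.

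Germinal centres are the sites where B cells mutate and select their antibody genes. Rgs13, a signalling regulator of germinal centre B cells, had 22 and 19 counts in WT and 1 and 0 in KO, a pooled WT to KO ratio of 56.5 (95% exact interval 9.59 to 2286). This interval covers counting error only. The fitted log2 change of Rgs13 was -5.47 ± 0.89 (SE, edgeR adjusted p = 0.00165). Rgs13 passed the filter on low counts only through WT, so the direction of its change follows from that filter. S1pr2 rose by 1.30 in log2 units (edgeR adjusted p = 0.00489), and of 6 tested germinal centre genes 3 fell and 1 rose. Among 15 genes of the switching and repair machinery, 7 fell and 1 rose, with a median of -0.69. Most of these are active in all dividing cells. For both lists, the share of all genes tested that was called in either direction was 42.2%. Rif1, which protects DNA ends during switching, fell by 0.99 in log2 units (edgeR adjusted p = 0.00329) and Mad2l2, a shieldin subunit, rose by 1.02 (edgeR adjusted p = 0.0325). Mad2l2 did not pass with upper quartile scaling (0.83, edgeR adjusted p = 0.069), nor with DESeq2 (DESeq2 adjusted p = 0.133), nor without any one of the 4 libraries.

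Signals that direct switching and plasma cell survival also divided. Of 17 listed genes 10 were tested, 6 fell and 2 rose, with a median of -1.67. Cd40lg, the T cell signal for switching, stood at 7.97 and 13.5 CPM in WT and 1.21 and 0.162 CPM in KO and fell by 4.02 in log2 units (edgeR adjusted p = 0.00219). Ccr9, a homing receptor of mucosal lymphocytes, fell by 4.2 (edgeR adjusted p = 0.000192). Tgfb1, a cytokine that directs switching to IgA, stood at 130 and 114 CPM in WT and 234 and 184 CPM in KO and rose by 0.77 in log2 units (edgeR adjusted p = 0.00902), though its call was lost with WT 2 left out (0.68, edgeR adjusted p = 0.0658). Il10 had 1 and 2 counts in WT and 49 and 37 in KO.

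Receptors that bind or carry antibodies moved in both directions. Pigr, the epithelial carrier of polymeric IgA and IgM, stood at 424 and 264 CPM in WT and at 10.3 and 42.7 CPM in KO. The groups did not overlap, but the 2 KO libraries differed and the log2 difference of -3.68 ± 0.96 (SE) did not pass (edgeR adjusted p = 0.083). It passed without KO 1 (-3.0, edgeR adjusted p = 0.0163) and without KO 2 (-5.03, edgeR adjusted p = 0.00639). Fcmr, the IgM receptor of lymphocytes, fell by 5.04 in log2 units (edgeR adjusted p = 0.000171). The IgG receptors of myeloid cells went the other way: Fcgr4 stood at 0.550 and 0.674 CPM in WT and 40.2 and 16.2 CPM in KO. Its WT values rest on 2 and 3 counts, and Fcgr4 passed the filter on low counts only through KO. Fcgr3 rose by 4.71 in log2 units (edgeR adjusted p = 0.000989). Of 11 tested receptor genes 5 rose and 4 fell, where 42.2% of all genes tested were called in either direction. All 10 macrophage genes rose, Fcgr1 and C1qb the most, by 4.52 and 4.05 on the log2 scale.

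Markers of lymphoid tissue were also lower in KO. The 6 measured genes of lymph node vessels and stroma summed to 1698 and 1109 CPM in the WT pair and to 81.7 and 55.5 CPM in the KO pair, and 5 of the 6 fell. Within WT this sum was higher in WT 1, unlike 9 of the 10 immunoglobulin and J chain genes. Within KO it was higher in KO 1, as were all 10 of these genes. Glycam1, an adhesion ligand of high endothelial venules, stood at 644 and 299 CPM in WT and 17.3 and 14.6 CPM in KO (log2 change -4.89, edgeR adjusted p = 0.00113). Without KO 1 or KO 2 it did not pass (edgeR adjusted p = 0.135 and 0.146). Fut7, an enzyme of the same vessels that leukocytes also use, had 78 and 59 counts in WT and 0 in both KO libraries. All 12 T cell genes fell, with a median of -5.19 and summed levels of 1377 and 1493 CPM in WT and 53.7 and 28.5 CPM in KO. The largest falls among them were those of Cd8a and Cd3g (log2 change -6.54 and -6.24). Whether lymphoid tissue was carried into the WT libraries, and any part of it in the immunoglobulin values, was not tested. The summed acinar level was higher in WT 2 than in WT 1, as were 9 of the 10 immunoglobulin and J chain genes. In the KO pair the acinar sum was higher in KO 2, whereas all 10 of these genes were higher in KO 1. Of 13 tested acinar genes 2 passed as lower, Amy2a5 and Bhlha15, and 0 passed as higher. The median log2 change of these 13 was -5.99, and the KO libraries lay far apart, at summed levels of 171 and 3989 CPM. Of 12 duct genes 9 rose, Krt7 and Spp1 the most, by 4.29 and 3.69 on the log2 scale. Spp1 did not pass without KO 1 (edgeR adjusted p = 0.199), nor when KO 2 was left out (0.214).

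The genes nearest to Ighm, Igha and Jchain in their pattern over the 4 libraries were found by the root mean square difference of centred log2 CPM. Nearest to Ighm were Ubash3a, a regulator of T cell receptor signalling (difference 0.100), Aff3, a nuclear protein of lymphoid cells (0.115), and Spn, the leukocyte surface protein CD43 (0.139). Spn, for example, stood at 251 and 250 CPM in WT and 21.5 and 9.23 CPM in KO. Nearest to Igha were the model AC157822.3 (0.037), Ccdc69 (0.066) and the chemokine Ccl5 (0.084), and nearest to Jchain were AC157822.3 (0.042), Ccdc69 (0.116) and Unc80, a subunit of a sodium channel complex (0.126). AC157822.3 stood at only 3.02 and 5.84 CPM in WT and 0.402 and 0.0 CPM in KO, below the level of 3 counts in both KO libraries. Its log2 change was -4.44, against -2.97 for Igha and -2.94 for Jchain. The prior count of 2 used for log2 CPM shrinks differences at such levels, so its small distance says little. Ccl5 stood at 47.3 and 72.4 CPM in WT and 9.26 and 4.37 CPM in KO, with WT 2 above WT 1 as for Igha. With 4 libraries in 2 groups, such a likeness mostly restates the difference between the groups.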

How the data were processed

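The authors deposited unnormalized counts of reads for each gene model in a separate file for every library, with model coordinates and strand per the file headers. Per the submitters' processing notes the build was mm10, with TopHat and edgeR named. How reads were assigned to genes (software, gene annotation, strand, multiply mapping reads) is not given in the sources used here. The starts of the models count from 0 and are given from 1. All 10 models then equalled GENCODE M21, which gave exon lengths and sequences.

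After filterByExpr and TMM scaling, the quasi-likelihood test of edgeR 4.0.16 (R 4.3.3; glmQLFit with robust = TRUE) was run on genotype alone, with 2 residual degrees of freedom, over all 13990 genes. SE is the log2 change divided by the root of F. The procedure was run on simulated counts with the same assumed spread between libraries for every gene. That run does not cover genes that vary more, such as Ighg2c. Within-library ratios were compared with exact two-sided permutation tests (scipy 1.17.1), and shares carry Wilson intervals. Genes of 12 marker lists were named by rule: defining genes whatever their values, up to 2 genes per direction with the largest changes past the threshold, and the 3 genes most like Ighm, Igha and Jchain. The members and lists were chosen with earlier results of these data known. The alternatives were DESeq2 1.42.0, other scalings, no filter, removal of acinar genes, a replicate block and leaving out each library. The depth sets the level of 3 counts at 0.486 to 0.824 CPM. Some genes of the lists are not reported here by name.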

Additional observations from a re-analysis of the deposited data

How the results depend on the processing

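The log2 changes of the 10 genes were negative under all 10 alternatives. Ighm, Ighd and Ighg3 passed in 10 of 10, Ighe in 9, Igha in 8, Jchain in 7, Ighg1 and Ighg2b in 6, Igkc in 4 and Ighg2c in 2. The number of the 10 genes called lower, 9, was 4 with the replicate block, 3 to 10 when each library was left out, and 6 with no filter. Both the block and a left-out library leave 1 residual degree of freedom, and a lone library is assumed to vary like the other group. Replicate 1 of each group deviated from its group mean with a correlation of 0.035 across genes. A single value over all genes cannot show whether some genes share a pairing, which was not tested. DESeq2 called 10 of the 10 lower and 4760 genes in all, against 5909. Upper quartile scaling moved the median of all genes from -0.01 to -0.20, no filter to -0.11 and DESeq2 to -0.14. With upper quartile scaling 39.4% of the changed genes were higher, against 52.1%. The log2 difference of Pigr, -3.68, passed with DESeq2 (-3.66), and was -5.03 to -3.0 when each library was left out. The difference in the switched share, 6.82 percentage points, was -5.80 with Igha left out and -1.33 to 14.97 when each library was left out. The heavy chain to B cell gene difference, -0.22, was 0.53 against Cd79a and Cd79b, 0.52 with Igkc in place of heavy chains, 0.41 without Cd72 and Ebf1, and -0.73 to 0.29 when each library was left out. The causes were not tested. Low counts limit Ighe and Tnfrsf17.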
